A study of Mus musculus with 9 samples.

Results

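The genes described here encode 9 checkpoint ligands and costimulatory molecules, namely Cd274 (PD-L1), Pdcd1lg2 (PD-L2), Cd80, Cd86, Lgals9 (galectin-9), Havcr2 (TIM-3), Ido1, Cd47 and Sirpa. They were taken by name, as the probe annotation of the array gives it, and they are 9 of 34797 gene names on the array. They are measured by 13 of its 55681 probes, with 1 probe each for 6 genes, 2 probes each for Pdcd1lg2 and Cd80, and 3 probes for Cd47. Neutrophils were sorted as Gr-1bright cells from FVB/N mice, each sample pooling the cells of several animals. All the mice had been painted with DMBA, a carcinogen, at 6 and at 13 weeks of age and, 2 times a week, with PMA, a tumor promoter, from week 1 up to week 18 to 20, so that no untreated skin was measured. The samples came from skin next to papillomas (papilloma skin, 2 arrays), skin next to carcinomas (tumor skin, 2 arrays), papillomas, which are benign precancerous lesions (papilloma, 3 arrays), and squamous cell carcinomas (tumor, 2 arrays). The comparisons ask how the message of these genes in neutrophils within a lesion differed from that in the skin around it, and whether the stages differed.

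PD-L1 and PD-L2 are surface ligands of PD-1, a receptor that restrains activated T cells. CD80 and CD86 give T cells a second, activating signal through CD28 and a braking signal through CTLA-4. TIM-3 is an inhibitory receptor found on exhausted T cells and on myeloid cells, and galectin-9 is one of its ligands. IDO1 breaks down tryptophan, which T cells need. CD47 is displayed by most cells and binds SIRPα on phagocytes, which then refrain from engulfing the CD47-bearing cell.

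The probes on which the results turn are shown by 30 of their 60 bases, written 5′ to 3′, so that the matched place in each transcript can be found; whether it is translated was not annotated in the sources used here. Positions are those of the array annotation on mouse genome build mm9. The Cd274 probe lies at chr19:29462363-29462422 on the + strand, from base 3416 of its transcript, and begins as follows.
Cd274: ttgatgagtctcatgttaatgtcttgtttg
The Havcr2 probe lies at chr11:46294675-46294734 on the + strand and begins with these bases.
Havcr2: gctctcatgcagaagggaaaactaatctca
The Pdcd1lg2 probes lie at chr19:29545470-29545529 (probe 1) and chr19:29545473-29545532 (probe 2), 83.1 kb from the Cd274 probe, and share 57 of their 60 positions. They differ within the shared stretch at 2 positions, C53T and G58A, counted from 1 at the 5′ end of probe 1, the base of probe 1 first. The last 30 shared bases are shown, with the differing bases in capitals.
Pdcd1lg2 probe 1: tggaagcatttaagcaacacgtCaagtGcc
Pdcd1lg2 probe 2: tggaagcatttaagcaacacgtTaagtAcc
The 3 Cd47 probes read different parts of the transcript. Probe 1, from transcript base 888, lies at chr16:49896476-49896535. Probe 2 spans an intron between 49906910 and 49911025 of the same chromosome. Probe 3, annotated to a separate transcript model, lies at chr16:49913814-49913873. The first 30 bases of each are shown.
Cd47 probe 1: aatgacctctttcaccattgccatattgat
Cd47 probe 2: tatccaacctcctaggaataggtgaaggga
Cd47 probe 3: gcaaaagttgcctgcacttaaatttctctt

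Levels are log2 values of the deposited normalized table, in which each array's median lay between 6.08 and 6.12. A probe was called when its adjusted p in limma, taken over all probes, was at most 0.05, its groups differed by 1 or more on the log2 scale and its mean level reached 6. Arrays stood apart before any comparison. On papilloma skin 1, tumor skin 1 and tumor 1, at least 90.7% of spots were well above background, against 44.2 to 64.2% on the other 6 arrays, and the signal of their spike-in RNAs rose less steeply with dose (slopes of 0.678 to 0.894 against 1.04 to 1.06). The table's columns of papilloma skin 1 and tumor 1 ranked the probes unlike their own scanner files (Spearman's rho of 0.587 and 0.825) and most like the file of tumor 2 (0.923 and 0.946). For papilloma 2 and papilloma 3 the best match was in each case the file of the other one. Such an exchange would leave the values of the papilloma group as they are, but not comparisons by slide. Results of Cd274, Pdcd1lg2, Havcr2 and Sirpa are therefore given with and without the columns of papilloma skin 1 and tumor 1. Without those columns, papilloma skin and tumor keep a single array each. Values from the scanner files after quantile normalization stand beside them. For Cd47, Cd80, Cd86 and Lgals9 only the scanner values are added. The 6 arrays of steeper slope, called full slope below, are the 3 of papilloma and a single one of each other group. The only spread within a group there is that of papilloma, so errors over these 6 arrays say little about the other groups. Ly6g, which marks neutrophils, was well above background on all 9 arrays, at 9.30 to 12.7.

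Of the 13 probes, 5 rose in papilloma over papilloma skin and none was called lower. They belong to Havcr2, Pdcd1lg2 (both probes), Cd274 and Cd47 (probe 2). Among all probes 3.18% were called in this comparison and 2.18% were called higher. In tumor over tumor skin 4 probes rose, those of Havcr2, Pdcd1lg2 (both) and Cd274. Of all probes 4.21% were called there and 2.71% were called higher. Among the 36502 brighter probes 2467 were called, 1554 of them higher. Dropping the condition on fold size adds Cd86, lower in papilloma, and Sirpa, lower in tumor, against 5.34% and 7.67% of all probes. The 13 log2 fold changes had a median of 0.52 in papilloma over papilloma skin and of 0.37 in tumor over tumor skin, where all probes had medians of -0.01 and -0.02. The groups did not overlap for all 13 probes at the papilloma stage and for 8 at the tumor stage, but with 2 or 3 arrays a group this was so for 37.6% and 52.1% of all probes. A higher level here means more message per amount of RNA labeled, from pooled cells measured in bulk. A larger share of expressing cells therefore cannot be told apart from more message per cell.

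**Figure D1:**
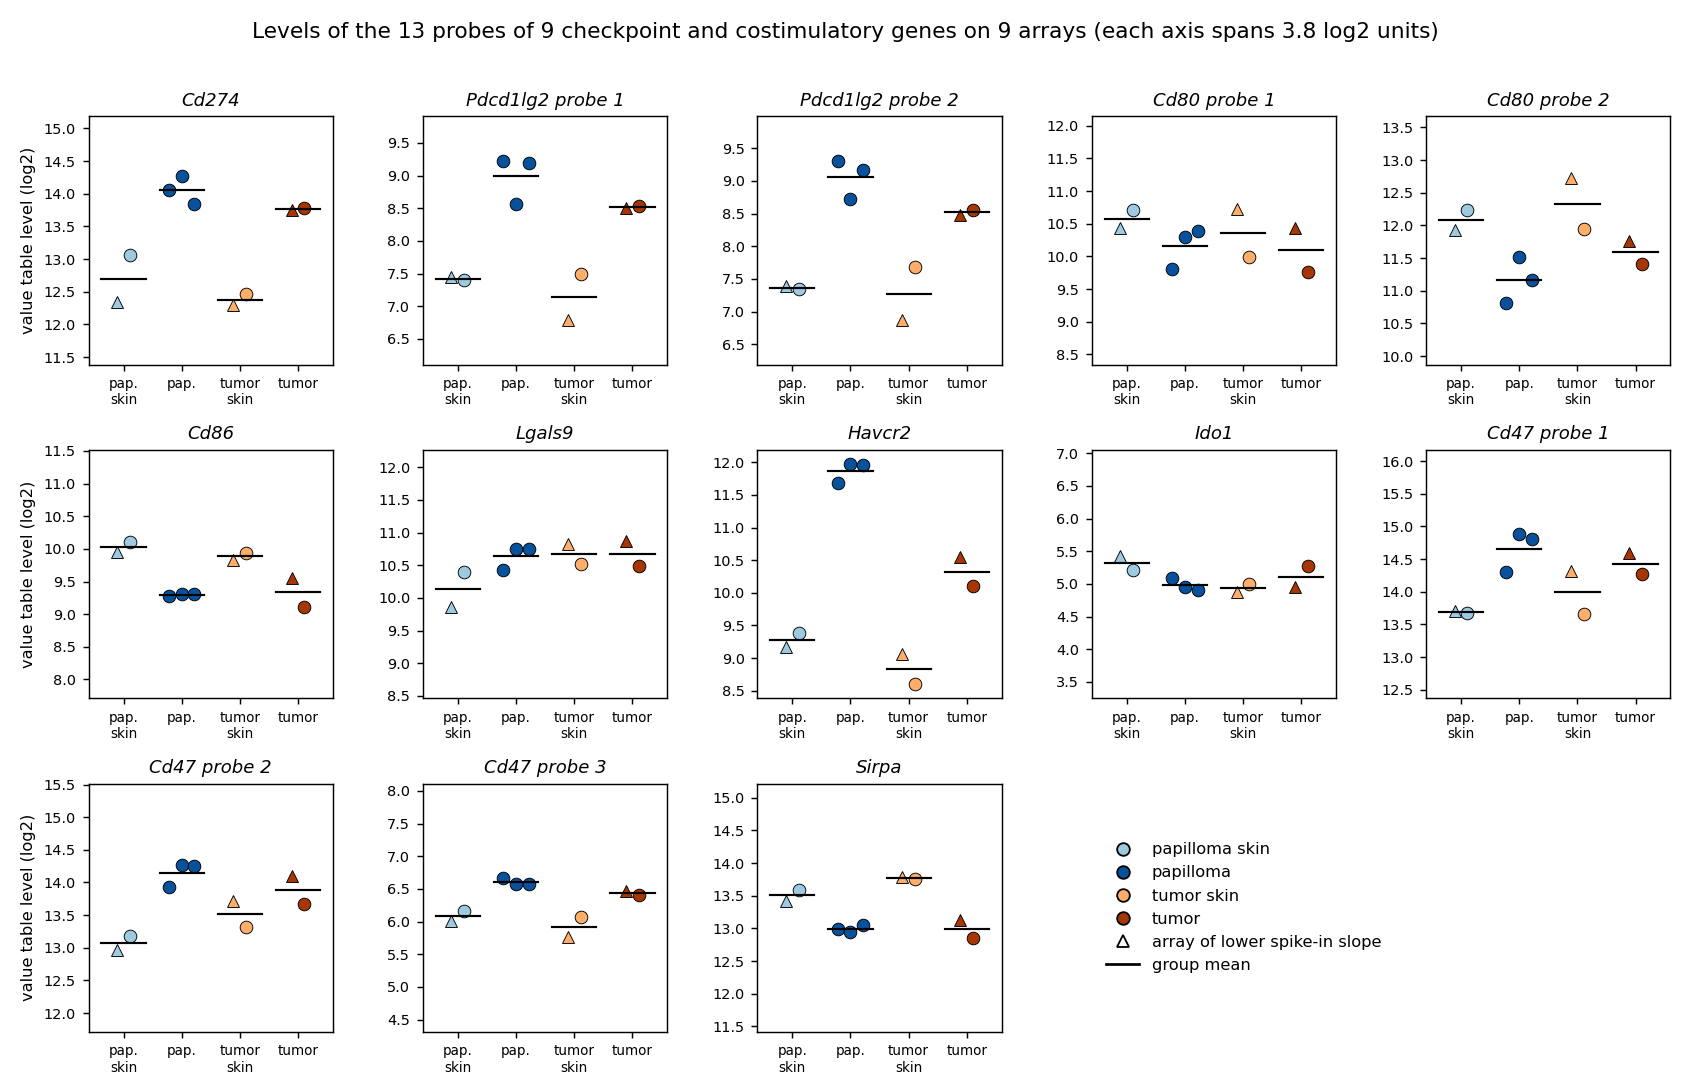
Levels of each of the 13 probes (log2, value table) on the 9 arrays by group; each point is an array, triangles are the 3 arrays of lower spike-in slope and lines are group means. Havcr2, Cd274 and both Pdcd1lg2 probes lay higher on every lesion array than on every skin array, and Sirpa and Cd86 lay lower.

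PD-L1 and PD-L2 messages were higher in both lesions than in the skin around them. Cd274 was among the brighter probes of the array, with a mean level above 97.3% of all probes. It read 12.34 and 13.06 in papilloma skin, 12.30 and 12.46 in tumor skin, 14.05, 14.27 and 13.85 in papilloma, and 13.75 and 13.79 in tumor. All 5 lesion arrays thus lay above all 4 skin arrays, and both tumor arrays lay below the lowest papilloma array by a small margin. Cd274 was 2.56-fold higher in papilloma (log2 fold change 1.35 ± 0.22 SE, adjusted p = 0.0108 in limma) and 2.63-fold higher in tumor (1.39 ± 0.24, adjusted p = 0.0130).

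The 2 papilloma skin arrays differ in Cd274 more than any other pair within a group. Without the columns of papilloma skin 1 and tumor 1 the papilloma difference was 1.00 ± 0.21 (adjusted p = 0.0837), and it also fell below the call without papilloma skin 1 alone (1.00, adjusted p = 0.0521). In the scanner files Cd274 read 9.50 on papilloma skin 1 and 13.52 on papilloma skin 2, the latter close to papilloma 1 at 13.62. Over the 6 arrays of full spike-in slope the papilloma difference was 0.50, below the fold required. The tumor difference was 1.41 without those columns and 1.80 over the 6 scanner arrays, the latter with a single array on each side. It lost its call on leaving out tumor skin 1, tumor 1 or tumor 2 (adjusted p = 0.0539 to 0.0875, log2 fold changes of 1.31 to 1.41).

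Pdcd1lg2 was dimmer than Cd274 but moved alike on both of its nearly identical probes. Probe 1 read 7.44 and 7.40 in papilloma skin, 6.79 and 7.49 in tumor skin, 9.22, 8.57 and 9.19 in papilloma, and 8.50 and 8.53 in tumor. Probe 2 read 7.38 and 7.35, then 6.87 and 7.68 in the skins, 9.30, 8.72 and 9.17 in papilloma, and 8.49 and 8.55 in tumor. Every lesion array lay above every skin array on both probes. The papilloma difference was 2.97-fold on probe 1 (1.57 ± 0.25, adjusted p = 0.0103) and 3.25-fold on probe 2 (1.70 ± 0.25, adjusted p = 0.00739). The tumor difference was 2.59-fold on probe 1 (1.37 ± 0.28, adjusted p = 0.0223) and 2.37-fold on probe 2 (1.25 ± 0.28, adjusted p = 0.0307).

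Without the columns of papilloma skin 1 and tumor 1 the size of the Pdcd1lg2 differences was much the same (1.60 and 1.72 in papilloma, 1.39 and 1.28 in tumor), while the adjusted p values rose to 0.0890 to 0.125. Over the 6 scanner arrays the papilloma differences were 1.46 and 1.74. The tumor differences there, with a single array on each side, were 1.33 and 1.30. The papilloma call was lost without papilloma skin 2 on both probes and without papilloma skin 1 on probe 1 (1.55 to 1.68, adjusted p = 0.0529 to 0.0681). The tumor call was lost without tumor skin 1, tumor 1 or tumor 2 on both probes and without papilloma 3 on probe 2 (0.84 to 1.39, adjusted p = 0.0577 to 0.157). The 2 probes share 57 positions and a target, so they are not separate evidence.

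Havcr2 showed the largest differences of the 9 genes in papilloma over papilloma skin. It read 9.17 and 9.38 in papilloma skin, 9.06 and 8.60 in tumor skin, 11.68, 11.98 and 11.96 in papilloma, and 10.54 and 10.11 in tumor. No 2 groups overlapped, and their order was tumor skin, papilloma skin, tumor and papilloma. TIM-3 message was 6.05-fold higher in papilloma than in papilloma skin (2.60 ± 0.20, adjusted p = 0.000494) and 2.82-fold higher in tumor than in tumor skin (1.50 ± 0.22, adjusted p = 0.00763). It was also the only member probe called between the lesions, 2.92-fold lower in tumor than in papilloma (-1.55 ± 0.20, adjusted p = 0.0201), where 0.447% of all probes were called.

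The papilloma difference of Havcr2 was 2.49 without the columns of papilloma skin 1 and tumor 1, 2.64 ± 0.25 with slide as a term (adjusted p = 0.0118 in limma) and 2.58 over the 6 scanner arrays. The tumor difference was 1.28 without those columns, where its call was lost, and 1.52 over the 6 scanner arrays, the latter with a single array on each side. The difference between the lesions was -1.76 ± 0.24 without those columns (adjusted p = 0.159), and leaving out any 1 of the 3 papilloma or 2 tumor arrays ended its call (adjusted p = 0.0528 to 0.155).

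Lgals9, whose product is a ligand of TIM-3, did not follow Havcr2. It read 9.86 and 10.40 in papilloma skin, 10.82 and 10.52 in tumor skin, 10.43, 10.74 and 10.74 in papilloma, and 10.87 and 10.49 in tumor. The papilloma difference was 0.51 ± 0.21 (adjusted p = 0.226) and the tumor difference 0.00 ± 0.23 (95% interval -0.53 to 0.54), and papilloma skin alone lay apart from the other groups, by a narrow gap. Over the 6 scanner arrays the papilloma difference was -0.12 ± 0.56.

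Neither costimulatory ligand of CD28 was called in any comparison, and the lesion arrays tended to read lower than skin. Cd86 read 9.95 and 10.11 in papilloma skin, 9.83 and 9.94 in tumor skin, 9.27, 9.32 and 9.31 in papilloma, and 9.55 and 9.12 in tumor. Its level in papilloma was 1.66-fold lower than in papilloma skin (-0.73 ± 0.16, adjusted p = 0.0311), short of the fold required, and in tumor the difference was -0.55 ± 0.17 (adjusted p = 0.0812). In the scanner files papilloma skin 1 read 5.05 for Cd86, far below papilloma skin 2 at 9.86, and the sign of the papilloma difference turned with all 9 arrays (1.75 ± 1.21) but not over the 6 arrays of full slope (-0.75 ± 0.44).

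Cd80 has a probe from base 872 of its transcript (probe 1) and another from base 1457 (probe 2). Probe 2 read 11.92 and 12.23 in papilloma skin, 12.72 and 11.94 in tumor skin, 10.81, 11.51 and 11.17 in papilloma, and 11.77 and 11.40 in tumor. Both lesions lay below both skins on this probe, by 0.91 ± 0.28 in papilloma (-0.91, adjusted p = 0.108) and by 0.75 ± 0.31 in tumor (-0.75, adjusted p = 0.167). Probe 1 ranged from 9.77 to 10.72 over all arrays with overlapping neighbours throughout (-0.40 ± 0.29 in papilloma and -0.25 ± 0.32 in tumor). The probes therefore had the same sign in both comparisons of lesion with skin, and whether they differed in size was not tested. Their signs were opposite in tumor over papilloma (-0.06 ± 0.29 on probe 1 and 0.42 ± 0.28 on probe 2). The same was so in tumor skin over papilloma skin (-0.21 ± 0.32 on probe 1 and 0.25 ± 0.31 on probe 2).

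**Figure D2:**
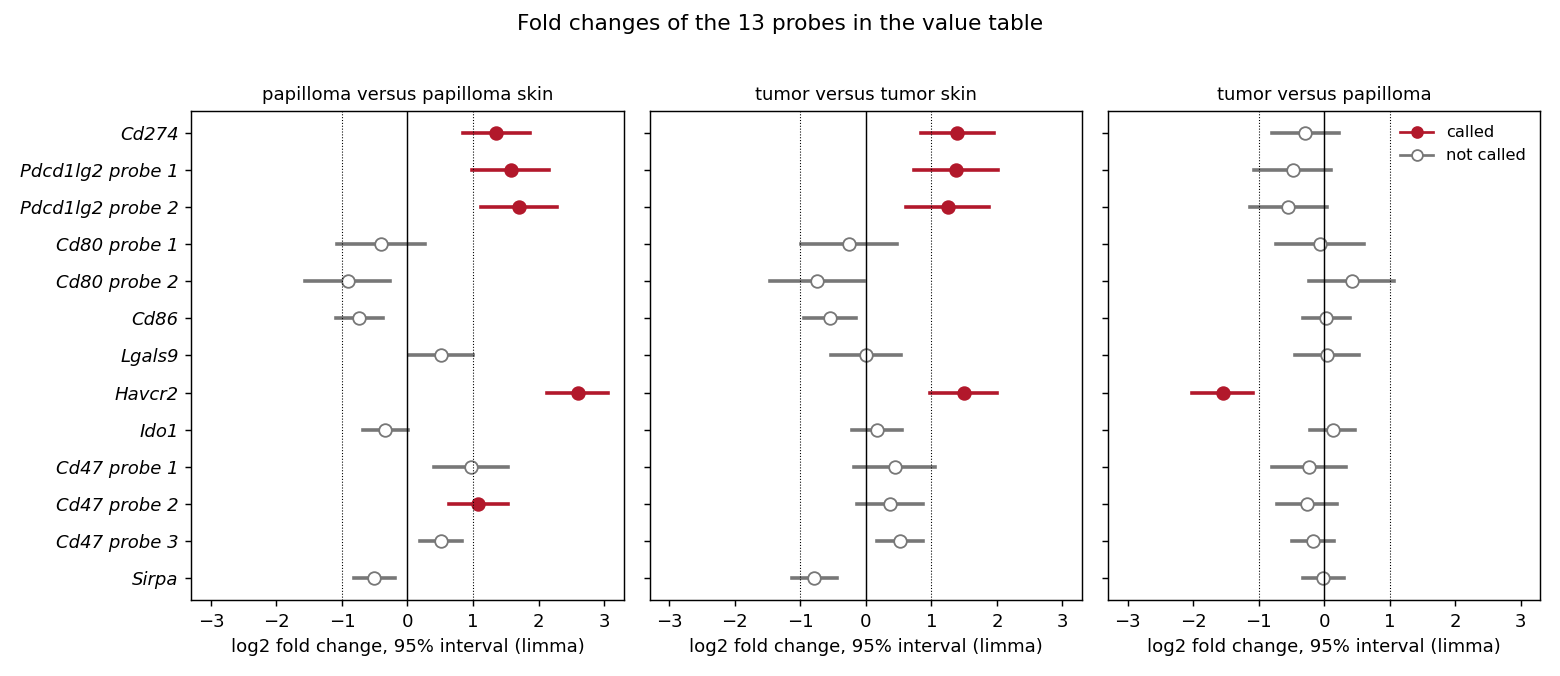
Log2 fold changes of the 13 probes with 95% intervals from limma in papilloma over papilloma skin, tumor over tumor skin, and tumor over papilloma; red points were called, and dotted lines mark an absolute value of 1. Havcr2, at 2.60, 1.50 and -1.55, is the gene called in all 3 comparisons.

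Of Cd47 and Sirpa, ligand and receptor of the "don't eat me" signal, Cd47 rose in papilloma on 1 of its 3 probes, and Sirpa was called in no comparison. Cd47 was bright on probes 1 and 2 and near the background on probe 3, which was not well above background on tumor skin 2. Probe 2 read 12.96 and 13.17 in papilloma skin, 13.72 and 13.32 in tumor skin, 13.93, 14.27 and 14.25 in papilloma, and 14.11 and 13.67 in tumor. It was 2.12-fold higher in papilloma than in papilloma skin (1.08 ± 0.20, adjusted p = 0.0176), whereas the tumor and tumor skin arrays overlapped (0.37 ± 0.22, adjusted p = 0.322). Probe 1 read 13.71 and 13.68 in papilloma skin and 14.30, 14.88 and 14.81 in papilloma (0.96 ± 0.25, adjusted p = 0.0590), and probe 3 gave 0.52 ± 0.14 (adjusted p = 0.0727).

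All 3 Cd47 probes, with probe 3 near background, were thus higher on every papilloma than on every papilloma skin array, and 1 of them passed. In this comparison the groups did not overlap for 37.6% of all probes. The call of probe 2 was lost on leaving out papilloma skin 1, papilloma skin 2, papilloma 2 or papilloma 3 (0.98 to 1.19). Over the 6 scanner arrays the difference on probe 2 was 0.93, below the fold required.

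Sirpa read 13.42 and 13.59 in papilloma skin, 13.79 and 13.76 in tumor skin, 12.99, 12.95 and 13.06 in papilloma, and 13.12 and 12.85 in tumor. Its lowest skin value was thus above its highest lesion value. The difference was -0.79 ± 0.15 in tumor (1.73-fold lower, adjusted p = 0.0177), again short of the fold required, and -0.51 ± 0.14 in papilloma (adjusted p = 0.0720). Without the columns of papilloma skin 1 and tumor 1 the tumor difference was -0.93. Over the 6 scanner arrays, with a single array on each side, it was -1.07.

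Ido1 had no usable signal in these neutrophils. Its probe was well above background on 3 arrays, which are the 3 on which at least 90.7% of all spots were, and its level of 4.87 to 5.43 lay in the lowest 7.82% of probe means. No difference of Ido1 is read from such values.

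Within slides the lesion differences of the called genes had the sign of the pooled values. This was fixed beforehand, since the groups compared did not overlap for these probes, so the values below describe size only. Slides are those of the scanner files, which the columns of papilloma skin 1 and tumor 1 did not match best. The columns of papilloma 2 and papilloma 3 best matched each other's files, which lie on slides 2 and 3. If these were exchanged, the papilloma values on slide 2 and the fit with slide as a term would change. All 4 groups had an array on slide 1, all but tumor skin had one on slide 2, and slide 3 carried an array of tumor skin and one of papilloma. In papilloma over papilloma skin the values on slides 1 and 2 were 1.71 and 1.21 for Cd274, 1.77 and 1.17 for Pdcd1lg2 probe 1, 1.92 and 1.37 for probe 2, 2.51 and 2.59 for Havcr2, and 0.97 and 1.10 for Cd47 probe 2. Tumor and tumor skin shared slide 1 alone, with differences of 1.46 for Cd274, 1.71 and 1.61 for the Pdcd1lg2 probes and 1.48 for Havcr2. For Havcr2 in tumor over papilloma the values were -1.13 on slide 1 and -1.87 on slide 2. With slide as a term in limma, 4 of the 5 papilloma calls remained, without Cd47 (1.11, adjusted p = 0.102), and none of the 4 tumor calls did (adjusted p = 0.0802 to 0.104, log2 fold changes of 1.21 to 1.67), and the call of Havcr2 between the lesions was lost (adjusted p = 0.198).

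**Figure D3:**
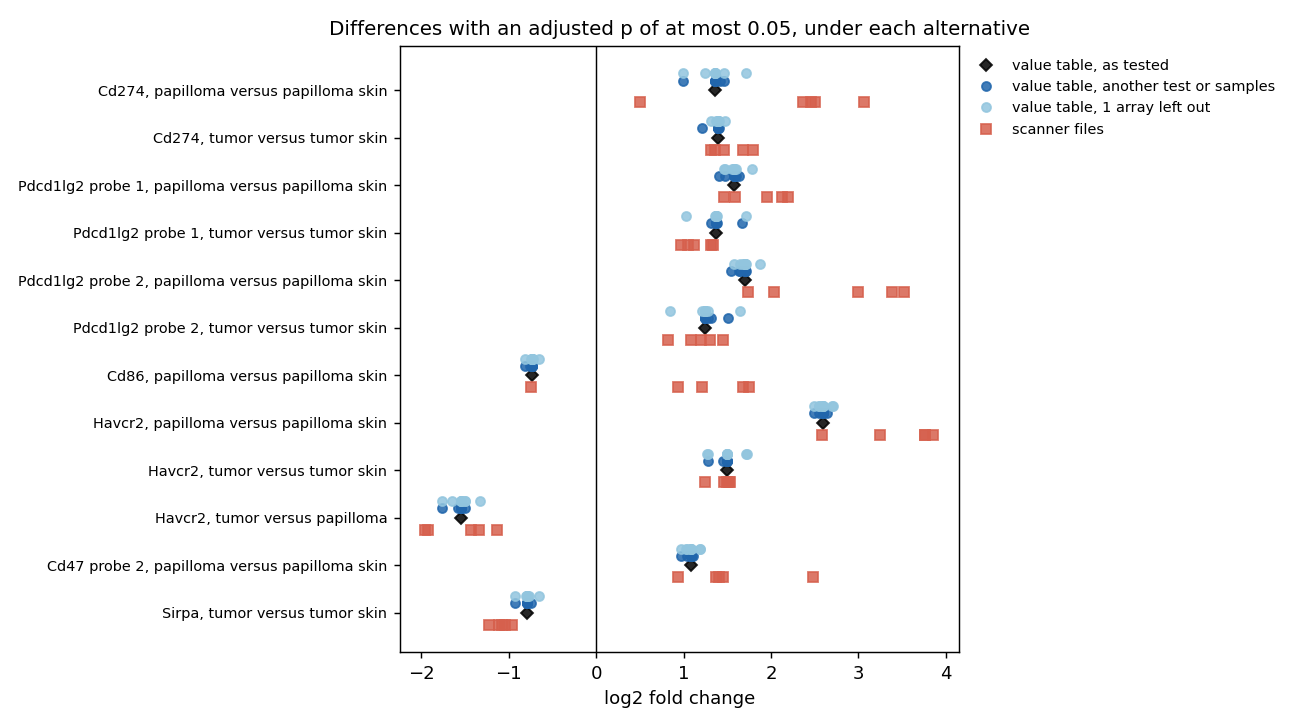
Log2 fold changes of the 12 differences with an adjusted p of at most 0.05, as tested (black diamonds), under other tests or samples of the value table (dark blue), with 1 array left out (light blue) and from the scanner files (red squares). The sign is the same throughout except for Cd86, which ranged from -0.75 to 1.75 in the scanner files.

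Whether the lesion effect differed between the stages was tested by an interaction term, and limma called 0 member probes, against 0.0269% of all probes, with 2 at an unadjusted p under 0.05. Havcr2 came closest, with a tumor effect smaller than the papilloma effect by 1.10 (-1.10 ± 0.30, unadjusted p = 0.00619, adjusted p = 0.194). Cd47 probe 2 gave -0.72 ± 0.30 (unadjusted p = 0.0409, adjusted p = 0.318), and the remaining 11 probes had unadjusted p values of 0.0507 or more. For Cd274 the difference between the effects was 0.04 ± 0.33, with a 95% interval from -0.72 to 0.80, which leaves room for a sizeable difference either way. Between tumor skin and papilloma skin limma called 0 member probes, 2 having an unadjusted p under 0.05, where 0.260% of all probes were called. The widest differences there were those of Lgals9 (0.54 ± 0.23, adjusted p = 0.217), Cd47 probe 2 (0.45 ± 0.22, adjusted p = 0.254) and Havcr2 (-0.45 ± 0.22, adjusted p = 0.269).

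Lists of related genes place the 9 in their pathways. Among 11 probes of other B7 family and costimulatory ligands, 1 rose in papilloma, that of Cd276 (B7-H3, a ligand with inhibitory effects on T cells), by 1.05 ± 0.15 (adjusted p = 0.00658), from a mean of 5.71 to 6.75. It was well above background on 7 of 9 arrays. The list's median was 0.13 in papilloma and 0.22 in tumor, and Vtcn1, Cd70 and Tnfsf4 were not well above background on any array of full slope. Among the 6 probes of the receptors PD-1, CD28, CTLA-4 and ICOS, which T cells carry, Icos rose in tumor over tumor skin by 2.64 ± 0.49 (adjusted p = 0.0157). Tumor skin stood alone for Icos, at a mean of 6.24, where the other groups lay at 8.73, 8.88 and 8.88. The median of the 6 receptor probes was 0.93 in tumor over tumor skin and -1.05 in tumor skin over papilloma skin, so low tumor skin values were not particular to Icos.

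Other inhibitory ligands and receptors gave 1 lower call at each stage among 19 probes, both of Cd48, a ligand of the receptor 2B4 (-1.23 ± 0.28 and -1.19 ± 0.31, adjusted p = 0.0395 and 0.0480). Of 26 probes of galectins and the TIM family, Lgals8 (galectin-8) rose in tumor by 1.10 ± 0.22 (adjusted p = 0.0218). Of 15 probes of tryptophan and kynurenine enzymes, Haao, which acts late in tryptophan breakdown, fell in tumor (-1.78 ± 0.27, adjusted p = 0.00829), and Ido2 and Tdo2, which like IDO1 open that path, were not well above background on the arrays of full slope. Of 17 probes for partners of CD47 and SIRPα, Thbs1 (thrombospondin-1, a soluble ligand of CD47) fell in papilloma (-1.18 ± 0.17, adjusted p = 0.00627) and was lower in tumor skin than in papilloma skin (-1.58 ± 0.19, adjusted p = 0.0338). Fyb, an adaptor protein of hematopoietic cells, fell at both stages (-1.16 ± 0.23 in papilloma and -1.51 ± 0.26 in tumor on 1 probe, adjusted p = 0.0253 and 0.0116).

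Interferon-gamma is a known inducer of PD-L1. Its list holds the ligand, receptors, a feedback inhibitor and target genes, and was called in both directions. The part of interferon-gamma in the Cd274 difference was not tested. Of 26 probes, 1 rose and 2 fell in papilloma, and 3 rose and 1 fell in tumor. Socs1, a feedback inhibitor of cytokine receptors, rose in both (1.12 ± 0.20 and 1.55 ± 0.22, adjusted p = 0.0153 and 0.00618). The chemokine gene Cxcl10 (2.04 ± 0.30, adjusted p = 0.00715) and the GTPase gene Gbp5 (1.88 ± 0.39, adjusted p = 0.0236) rose in tumor. Ciita, the master regulator of MHC class II genes, fell in both (-1.04 ± 0.23 and -1.28 ± 0.25, adjusted p = 0.0350 and 0.0194), and Ifng itself fell in papilloma (-1.74 ± 0.31, adjusted p = 0.0146). The list's medians were -0.17 in papilloma and -0.07 in tumor. No related gene of the 7 lists was called in tumor over papilloma.

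Markers of other cells moved with the same contrasts. Keratinocyte markers were called higher on 4 of 17 probes in papilloma and 5 of 17 in tumor, and the log2 of their summed level was 13.4 to 14.0 in papilloma skin, 13.3 to 14.1 in tumor skin, 14.4 to 15.5 in papilloma and 14.7 to 16.3 in tumor. Endothelial markers were called higher on 3 of 8 probes in papilloma and 1 of 8 in tumor, with sums of 12.8 to 13.1, 13.1 to 14.0, 12.8 to 13.7 and 12.4 to 12.7 in the same order of groups. No fibroblast probe of 6 was called higher and 1 was called lower in tumor, that of Dcn. The fibroblast sum was 15.0 to 15.5 in papilloma against 12.3 to 13.8 in tumor and 13.0 to 14.6 over the skins. Of 11 T cell probes 1 was called in these comparisons, Cd3d, lower in tumor, and none of 7 mast cell probes was. The T cell sum was 13.3 to 13.6 over the skins and 12.9 to 13.2 over the lesions, and the mast cell sum was 10.5 to 11.6 and 10.6 to 11.2. Both probes of Emr1, a macrophage marker gene, were called lower in both lesions, the only calls among 15 monocyte and macrophage probes in these comparisons, and the sum was 15.5 to 16.0 over the skins and 15.3 to 15.6 over the lesions. Dendritic and Langerhans cell markers, on 17 probes, had 1 higher call in papilloma (Itgax, which encodes CD11c) and 2 lower calls in tumor (Cd74 and H2-Ab1, which serve antigen presentation by MHC class II). Their sum was 15.1 to 15.6 in papilloma skin, 14.7 to 15.3 in tumor skin, 15.4 to 15.9 in papilloma and 14.2 to 14.4 in tumor. The MHC class II gene H2-Eb1, lower in tumor than in papilloma (-1.30 ± 0.15, adjusted p = 0.0124), was the only marker called in that comparison, where Havcr2 was called lower too.

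Eosinophil markers were called lower on 3 of 7 probes at each stage (Ear2, Ccr3 and Il5ra) and higher on 2 in tumor, both of Siglec5. Their sums were 13.6 to 14.0 in papilloma skin, 13.0 to 13.1 in tumor skin, 11.8 to 12.3 in papilloma and 13.0 to 13.2 in tumor. The tumor sum came mostly from Siglec5, with a mean of 12.81 on its brighter probe. Ear2, Ccr3 and Il5ra had tumor means of 8.58, 7.86 and 7.38, against 11.88, 9.90 and 9.02 in tumor skin. Epx, the defining peroxidase of eosinophils, was not well above background on any array of full slope. Neutrophil markers were called lower on 5 of 16 probes in papilloma and 7 of 16 in tumor, namely those of Ly6g in tumor and of the granule protein genes Camp, Ngp, Ltf, Mmp8 and, in tumor, Lcn2, and their sum was lower on every lesion array (19.78 to 19.80 in papilloma and 19.93 to 19.99 in tumor) than on every skin array (20.13 to 20.17 in papilloma skin and 20.38 to 20.42 in tumor skin). B cell markers were called lower on 1 of 6 probes in papilloma and 2 of 6 in tumor, and their sums differed most, at 13.3 to 14.6 in papilloma skin and 13.4 to 15.3 in tumor skin against 8.65 to 9.66 in papilloma and 8.85 to 8.92 in tumor. Igj, which encodes the joining chain of antibodies, fell in both lesions (-6.71 ± 0.76 and -7.13 ± 0.84, adjusted p = 0.00240 and 0.00343). The part of these cells in the differences of the 9 genes was not tested.

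**Figure D4:**
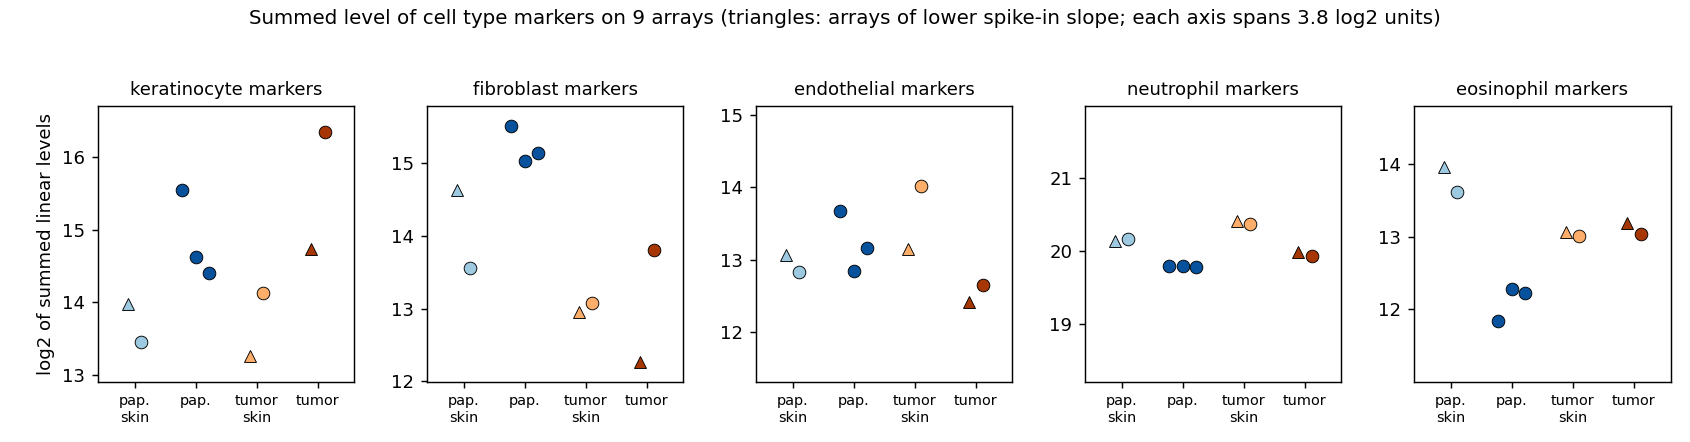
Log2 of the summed linear levels of 5 marker lists on each of the 9 arrays by group, with triangles for the 3 arrays of lower spike-in slope. The keratinocyte sum is higher in both lesions than in both skins, the fibroblast sum is highest in papilloma at 15.0 to 15.5, and the neutrophil sum is lower in both lesions (19.78 to 19.99) than in both skins (20.13 to 20.42).

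The probes whose pattern over the 9 columns was most like that of the called members were found by Pearson's r among 11969 named probes of at least level 7 that were well above background on at least 6 arrays. These values describe 9 columns that fall into lesion and skin groups. For Cd274 they were Wsb2, Cflar and N4bp2 (r = 0.993, 0.993 and 0.991), among which Cflar encodes c-FLIP, an inhibitor of death receptor signaling. For Havcr2 they were Rgs5, Col4a2 and Itga7 (0.993, 0.992 and 0.990), of which Rgs5 is a marker of pericytes and Col4a2 encodes a chain of basement membrane collagen. Rgs5 read 10.44 on average in papilloma, 8.28 in tumor and 6.45 and 6.08 in papilloma skin and tumor skin. For Cd47 probe 2 they were Cd300lf, an inhibitory receptor of myeloid cells, Atf1 and Casc3 (0.988, 0.983 and 0.981). The Pdcd1lg2 probes shared Zfr in this place (0.986 and 0.989), beside Bcar1 and Fam178a for probe 1 and Myo18a and Ppp1r13b for probe 2.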

How the data were processed

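One-color Agilent mouse arrays of 9 samples were used, and groups were taken from the sample labels. Per the file headers, the deposited scanner files hold background-subtracted spot intensity from Feature Extraction 10.7.3.1. Normalized log2 values were deposited by the authors as a separate table; their methods name quantile normalization in limma and chip correction by ComBat, without stating which steps the table holds, and if chips were corrected, the p values do not count the degrees of freedom this took.

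The 4 groups were fitted together on the 55681 probes of that table with limma 3.58.1 in R 4.3.3 (5 residual degrees of freedom) and adjusted by Benjamini-Hochberg; the number of arrays limits the precision, and p values measure the spread between pooled preparations. The fit was checked on data made with known answers. Scanner signals were log2 transformed and quantile normalized (55155 probes). Probes were named from the scanner files, and 11 of 13 matched RefSeq (GRCm38.p6) by accession, all with the same symbol. All probes of the 9 genes are named, and of related lists the genes called in at least 1 comparison. The members, lists and tests were chosen with earlier results of these data known. Alternatives covered the source of the values, scaling, background, slide, replicate block, samples, filters, gene medians and each array left out.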

Additional observations from a re-analysis of the deposited data

How the results depend on the processing

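Of the 10 called differences, none changed sign in 220 refits or changed conditions, and 124 kept the call. Both counts include outcomes fixed beforehand. Dropping the level or the fold condition reused the same fit and could not lose a call. Leaving out an array of a group not compared left the fold change as it was. Where groups do not overlap, leaving out any array cannot change the sign. Papilloma over papilloma skin had 5 called member probes, which became 0 under each of 5 ways of starting from the scanner files, 2 with a replicate block, 1 without the columns of papilloma skin 1 and tumor 1, and 2 to 6 when 1 array was left out. Tumor over tumor skin had 4, which became 0 from the scanner files and with slide as a term, 1 with a replicate block, 1 without those columns, 2 when only the compared groups were fitted, and 1 to 4 when 1 array was left out. Tumor over papilloma had 1, which became 0 from the scanner files, with slide as a term, with a replicate block and without those columns, and 0 to 1 when 1 array was left out. The scanner files gave 0 called probes of all 55155 in any of the 5 comparisons (limma), with 147 to 7807 at an unadjusted p under 0.05. Cd86 in papilloma over papilloma skin, lower by 0.73 in the table (-0.73), reversed from the scanner files to 1.75 (quantile), 1.68 (quantile with slide), 1.21 (scaled to the 75th percentile) and 0.94 (normexp), and the cause was not tested. Of the 53 member values with an adjusted p above 0.05, 34 changed sign in at least 1 refit, in 128 of 1161 refits.

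Over all probes, the calls in papilloma over papilloma skin (1769) became 981 with slide as a term, 552 with a replicate block, 1018 without the columns of papilloma skin 1 and tumor 1 and 2975 without the fold condition. Those in tumor over tumor skin (2346) became 209, 737 and 1759 in the first 3 of these settings, 4272 in the last, 1151 when only the compared groups were fitted and 804 without tumor 2. Those in tumor over papilloma (249) became 0, 1, 0 and 300, and 25 to 306 with 1 array left out. Those between the skins (145) became 0 with slide, block, without the columns or with the compared groups alone, 260 with no level minimum, 64 without dim probes and 0 to 9 with 1 array left out. The 15 calls of the difference between the stages became 0 with slide, block or without the columns, 31 with gene medians and 0 to 4 with 1 array left out. In the scanner files the median of all probes in papilloma over papilloma skin was 0.13 with quantile scaling and -0.41 with the 75th percentile. Where leaving out an array left a lone one in its group, that array was assumed to vary like the other groups.

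The replicate numbers were not taken to pair the arrays. The deviations of same-numbered arrays correlated at 0.16 and 0.53 between papilloma and papilloma skin and at 0.39 between tumor and tumor skin, but each comparison has only 2 such pairs, the deviations within a group of 2 arrays mirror each other, and over all groups the correlations ran from -0.96 to 0.53. Under the replicate block Havcr2 (2.55, adjusted p = 0.0197) and Cd274 (1.46, adjusted p = 0.0498) were called in papilloma, and Cd274 in tumor (1.39, adjusted p = 0.0490). The skin groups correlated at -0.14, and crossing their numbers, an alternative chosen after seeing the data, gave 0 called probes. Probes near background, as Ido1 and Cd47 probe 3, allow no statement on small differences.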

Other observations

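The overlapping Pdcd1lg2 probes, which share 57 positions, differed in the scanner file of papilloma skin 1 by 1.93 on the log2 scale before normalization, while on the other 8 arrays they differed by -0.09 to 0.39. In the value table they differed by 0.06 on papilloma skin 1 and by -0.19 to 0.05 on the other 8 arrays.

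On papilloma skin 1 the scanner file after quantile normalization lay below the value table for all probes of the 9 genes but Cd80 probe 2, at 9.50 against 12.34 for Cd274, 6.58 against 9.17 for Havcr2, 5.05 against 9.95 for Cd86 and 8.25 against 9.86 for Lgals9, and above it for Cd80 probe 2, at 12.40 against 11.92.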
